A study of Mus musculus with 4 samples.

Results

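The genes described here are 10 members of the NF-κB system, taken by symbol from a table of 54149 genes measured by RNA sequencing of mouse liver. All 10 symbols were found once. They are the NF-κB subunit genes Nfkb1, Nfkb2 and Relb, the inhibitor genes Nfkbia and Tnfaip3, the nuclear IκB genes Nfkbiz and Bcl3, the cytokine gene Tnf, the cytokine antagonist gene Il1rn and the adhesion gene Icam1. Livers came from adult female mice of the strain C57BL/6 x 129S4/SvJae, and the wild-type (WT) group is compared with a liver-specific Utx knockout (Utx KO) group. Every mouse in both groups had fasted for 16 h and then received acetaminophen (APAP) at 300 mg/kg by injection into the peritoneum, so no untreated level is known. Each group had 2 libraries, and each library pooled the RNA of 2 mice. Neither the Cre driver of the knockout nor the time from dose to collection is given in the labels. Expression is given as FPKM, fragments scaled to gene length and to a library total, as the authors deposited it.

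NF-κB is a family of dimeric transcription factors that rest in the cytoplasm bound to IκB proteins. Cytokines such as tumour necrosis factor and interleukin-1, and microbial products, activate the IκB kinase, which marks IκB for destruction and lets the dimer enter the nucleus. Among the genes it then switches on are those for its own inhibitors, which close the loop. In liver the pathway operates in hepatocytes and in resident and recruited leukocytes, and it is known for protecting hepatocytes from death caused by tumour necrosis factor. Utx, listed in the table as Kdm6a, is a histone demethylase that erases the silencing mark on lysine 27 of histone H3.

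The libraries held between 16330451 and 17804730 reads. Alb took between 5.40% and 6.93% of them, and the 7 hepatocyte markers found were above 0 in all 4 libraries. Kdm6a was at 3.40 and 3.85 FPKM in wild-type and at 2.20 and 2.12 FPKM in knockout pools, lower but present (limma adjusted p = 0.0715). A value for a whole gene does not show a deleted exon. Mitochondrial ribosomal RNA made up 0.244% and 0.251% of wild-type reads and 0.108% and 0.158% of knockout reads, and its part in the results below was not tested. The labels do not say whether the pools were processed in batches.

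Of the 10 genes, 2 were lower in the Utx knockout and 7 did not pass the test. Nfkbiz fell 4.48-fold and Il1rn fell 2.04-fold, as ratios of group means. The genes for the subunits and for the classical inhibitors did not pass, and neither did Bcl3 or Icam1. Tnf was not tested, since its average over the libraries was below the expression filter of 1 FPKM. The test was limma on log2(FPKM + 0.5) across 11900 genes, with p-values adjusted by Benjamini-Hochberg over all of them and a threshold of 0.05. Of all tested genes 4.74% passed, 3.14% lower and 1.6% higher, against 2 of the 9 tested members (22.2%). The members were chosen with earlier results of these data known, so these shares cannot be weighed against each other. None of the 9 was higher by limma, and 0 were higher at an unadjusted p under 0.05 or with limma voom on recovered reads. Of all tested genes, 14.4% were lower and 12.7% higher at an unadjusted p under 0.05, and limma voom called 5.77% lower and 3.51% higher. The median log2 fold change was -0.23 over the 9 and 0.01 over all tested genes. In 4 of the 9 both knockout pools were below both wild-type pools, and in 1 both were above. Such separation was common in these libraries: 29.9% of tested genes were separated downward, 31.6% upward and 61.5% in either direction, against 55.6% of the 9.

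**Figure D1:**
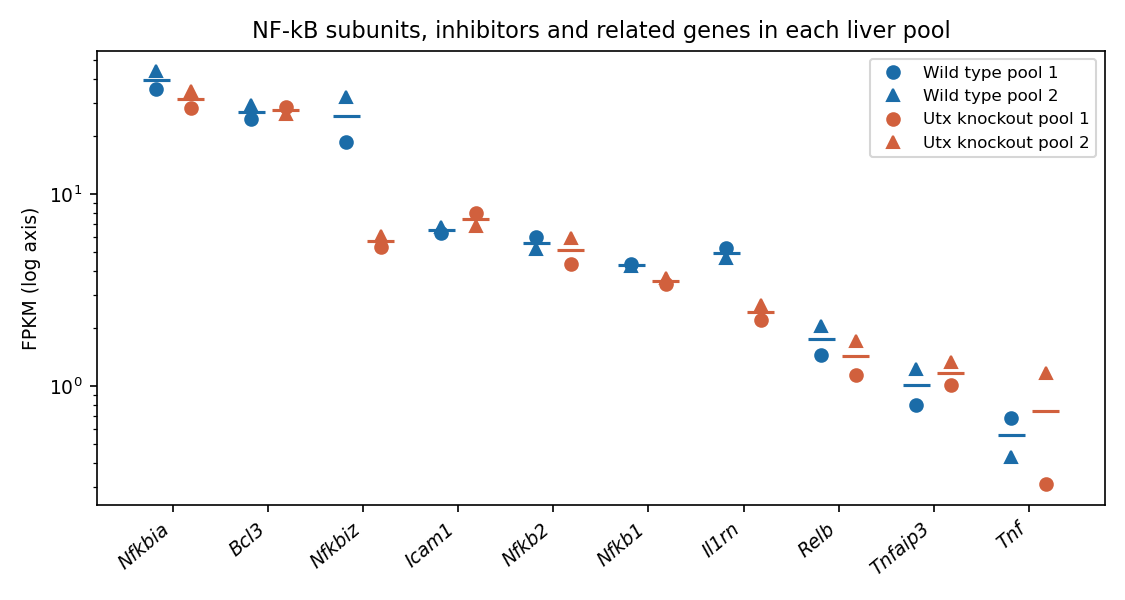
FPKM on a log axis for each of the 10 genes, ordered by mean level, with 1 point per pool of 2 mice (circles, replicate 1; triangles, replicate 2) and a bar at the mean of the 2 pools of a group. The wild-type pools of Nfkbiz stand at 18.6 and 32.2 FPKM and its knockout pools at 5.32 and 6.03 FPKM, while the points of Bcl3 from both groups lie between 24.6 and 29.1 FPKM.

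Levels per gene length spanned from under 1 to over 40 FPKM. In wild-type pools the order of mean levels was Nfkbia, Bcl3, Nfkbiz, Icam1, Nfkb2, Il1rn, Nfkb1, Relb, Tnfaip3 and Tnf. The pools of Bcl3 and Nfkbiz overlapped, and so did those of Nfkb2 and Il1rn, so these neighbours did not differ beyond their spread. In knockout pools Nfkbia and Bcl3 again came highest, with overlapping pools, and Nfkbiz stood below Icam1 and overlapped Nfkb2. Il1rn stood below Nfkb1. Relb, Tnfaip3 and Tnf were the lowest in both groups, and in the knockout the pools of Relb overlapped those of Tnfaip3, which overlapped those of Tnf.

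Among the subunits, Nfkb1 encodes p105, the precursor of p50. It was at 4.32 and 4.20 FPKM in wild-type and at 3.40 and 3.65 FPKM in knockout pools, from between 731 and 880 reads per library. The knockout pools were both below the wild-type pools, with a log2 fold change of -0.24 (SE 0.11, 95% confidence interval -0.54 to 0.06), which did not pass the limma test (adjusted p = 0.251). Nfkb2 encodes p100, the precursor of p52 in the non-canonical branch of the pathway. It was at 6.01 and 5.16 FPKM in wild-type and at 4.32 and 5.91 FPKM in knockout pools, so that the groups overlapped (log2 fold change -0.13, interval -0.61 to 0.35, limma adjusted p = 0.684). Relb, the partner of p52, was at 1.46 and 2.05 FPKM in wild-type and at 1.14 and 1.73 FPKM in knockout pools. In each group its replicate 2 pool was the higher one, and the spread between replicates was larger than the difference between groups (log2 fold change -0.23, interval -0.88 to 0.43, limma adjusted p = 0.597). On the scale of FPKM + 0.5, these intervals allow a Relb value in the knockout from 0.542 to 1.35 times that of wild type. For Nfkb1 they allow from 0.686 to 1.04 times.

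Rela and Rel, the remaining subunit genes, did not pass either. Rela, which encodes p65, was at 36.1 ± 2.31 FPKM in wild-type and 26.5 ± 0.594 FPKM in knockout pools (mean ± SD of n = 2 pools, as in later values). Its pools did not overlap, and it did not pass (log2 fold change -0.44, interval -0.72 to -0.15, limma adjusted p = 0.0932). Rel, which encodes the subunit c-Rel of leukocytes, was at 2.42 ± 0.815 and 1.54 ± 0.368 FPKM (limma adjusted p = 0.300). Rela was thus the most abundant of the 5 subunit genes per gene length in each library.

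The inhibitor Nfkbia encodes IκBα, which holds NF-κB in the cytoplasm and is itself induced by NF-κB. Nfkbia was at 35.1 and 43.6 FPKM in wild-type and at 28.2 and 34.3 FPKM in knockout pools, from between 809 and 1103 reads. The lower wild-type pool and the higher knockout pool were close, and the log2 fold change of -0.33 (SE 0.17, interval -0.77 to 0.12) did not pass the limma test (adjusted p = 0.283). The ratio of Nfkbia to Rela FPKM within a library was 1.02 and 1.15 in wild-type pools and 1.05 and 1.31 in knockout pools, so the groups overlapped. Tnfaip3 encodes A20, a ubiquitin-editing enzyme that stops signalling from the receptors of tumour necrosis factor and interleukin-1. Tnfaip3 was low, at 0.794 and 1.22 FPKM in wild-type and at 1.02 and 1.33 FPKM in knockout pools, and the groups overlapped (log2 fold change 0.16, interval -0.51 to 0.83, limma adjusted p = 0.721).

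The RefSeq promoter table (build GRCm38.p6) had an entry for 7 of the 10 genes, with Nfkb1, Relb and Nfkbiz not among them. Windows from 250 bases before a listed start to 50 bases from it on were searched on both strands for the κB consensus, the degenerate 10-base motif that NF-κB dimers bind. A match was present in a window of 4 of the 7, namely Nfkb2, Nfkbia, Tnfaip3 and Bcl3, and in none of the windows of Il1rn, Icam1 and Tnf. Of all 27025 genes in the table, 5.14% had a window with a match. By window, 6 of 12 windows of the 7 genes held one, and 4.51% of all 32851 windows. The 150 bases before the first listed start are shown for Nfkb2, Nfkbia and Tnfaip3, which held matches, and for Il1rn, which held none. Those of Bcl3, Icam1 and Tnf are not shown. Whether a match bears on the expression results was not tested. Capitals mark κB matches. The first capital run of Nfkb2 is a pair of overlapping matches.
Nfkb2 (chr19:46304587-46304736, plus strand): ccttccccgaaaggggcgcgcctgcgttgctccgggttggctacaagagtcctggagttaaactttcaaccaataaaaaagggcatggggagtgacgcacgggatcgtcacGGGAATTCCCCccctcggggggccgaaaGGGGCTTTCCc
Nfkbia (chr12:55492648-55492797, minus strand): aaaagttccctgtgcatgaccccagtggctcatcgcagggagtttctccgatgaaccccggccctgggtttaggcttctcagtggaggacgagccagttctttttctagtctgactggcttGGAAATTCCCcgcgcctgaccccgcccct
Tnfaip3 (chr10:19015411-19015560, minus strand): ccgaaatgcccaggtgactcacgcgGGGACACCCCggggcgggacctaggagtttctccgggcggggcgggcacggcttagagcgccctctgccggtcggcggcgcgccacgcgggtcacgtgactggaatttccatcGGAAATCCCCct
Il1rn (chr2:24336710-24336859, plus strand): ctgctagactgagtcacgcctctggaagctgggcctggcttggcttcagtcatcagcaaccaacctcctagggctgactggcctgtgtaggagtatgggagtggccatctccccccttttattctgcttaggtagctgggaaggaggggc
The match of Nfkbia begins 29 bases before its start, and those of Tnfaip3 begin 125 and 12 bases before. A match describes letters in a window, and windows elsewhere were not searched.

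The nuclear IκB proteins share ankyrin repeats with IκBα but bind NF-κB dimers in the nucleus, where they raise or lower transcription of particular targets. Nfkbiz (ENSMUSG00000035356, GRCm38 chromosome 16, 55811375 to 55838899, minus strand) encodes IκBζ, which is induced by interleukin-1 and Toll-like receptor signals and is needed for a later set of inflammatory genes. It was at 18.6 and 32.2 FPKM in wild-type and at 5.32 and 6.03 FPKM in knockout pools, from 1580, 2543, 476 and 519 reads. The wild-type pools differed from each other by 0.78 on the log2 scale and the knockout pools by 0.17, while the groups differed by -2.02 (SE 0.28, interval -2.76 to -1.28, limma adjusted p = 0.0408). The interval corresponds to a knockout level between 0.148 and 0.411 times that of wild type. With each library left out in turn the log2 fold change was between -2.41 and -1.63. The limma adjusted p was 0.0499 without wild-type replicate 1, and it missed the threshold without wild-type replicate 2 (0.0657), knockout replicate 1 (0.117) or knockout replicate 2 (0.0677).

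Bcl3 encodes the other nuclear IκB protein of the set, which works with p50 and p52 dimers. Bcl3 was at 24.6 and 29.1 FPKM in wild-type and at 28.4 and 26.2 FPKM in knockout pools from between 1030 and 1254 reads. The knockout pools lay between the wild-type pools, with a log2 fold change of 0.03 (SE 0.13, interval -0.31 to 0.37, limma adjusted p = 0.906). On the scale of FPKM + 0.5, a knockout value from 0.804 to 1.29 times that of wild type is allowed. The antisense genes Gm16174 and Gm16175 overlap Bcl3 and had at most 27 reads in a library, against at least 1030 for Bcl3. No listed gene overlapped Nfkbiz. The ratio of Nfkbiz to Bcl3 FPKM within a library was 0.757 and 1.11 in wild-type and 0.187 and 0.230 in knockout pools. The ratio of Nfkbiz to Nfkbia was 0.530 and 0.740 against 0.189 and 0.176. In both ratios the lower wild-type pool was above the higher knockout pool, and these ratios were not tested.

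**Figure D2:**
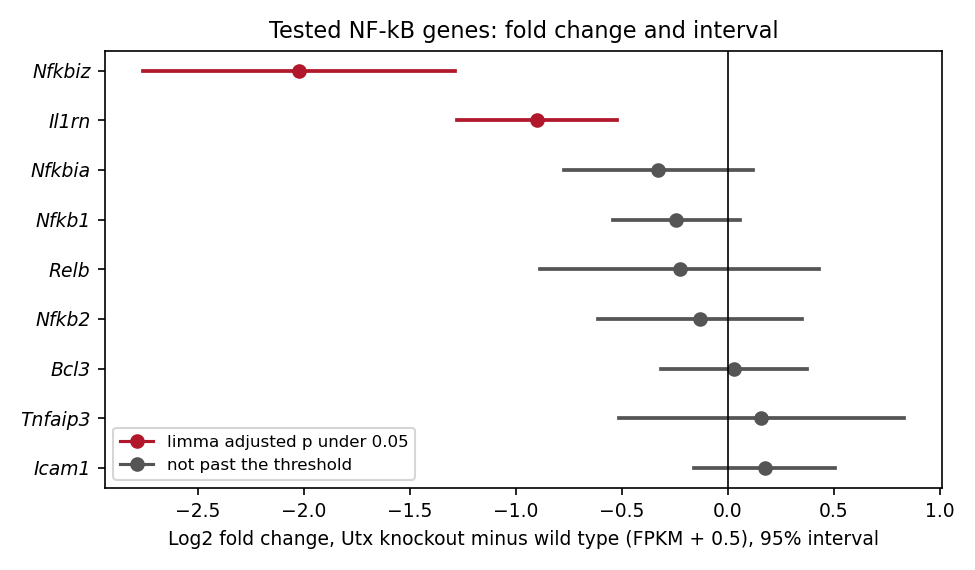
Log2 fold change, Utx knockout minus wild type on log2(FPKM + 0.5), for the 9 tested genes, with 95% confidence intervals from limma; red marks an adjusted p under 0.05. The intervals of Nfkbiz (-2.76 to -1.28) and Il1rn (-1.28 to -0.52) exclude 0, and the other 7 include it.

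The cytokine Tnf, a main activator of the pathway made largely by macrophages, had few reads in these libraries. Tnf was at 0.686 and 0.427 FPKM in wild-type and at 0.308 and 1.17 FPKM in knockout pools, from 19, 11, 9 and 33 reads. The knockout pools were the lowest and the highest of the 4, with exact Poisson 95% intervals of 0.141 to 0.585 and 0.808 to 1.65 FPKM, which cover counting error only. Without the expression filter its log2 fold change was 0.15 (interval -1.06 to 1.36, limma adjusted p = 0.879). No difference between groups was detected, and the knockout pools differed from each other by more than their counting intervals. The summed level of 12 Kupffer cell and macrophage markers was 434 and 343 FPKM in wild-type and 260.1 and 417 FPKM in knockout pools. This sum was lowest in the same library as Tnf, knockout replicate 1. It was highest in wild-type replicate 1, whereas Tnf was highest in knockout replicate 2. All 12 markers were above 0 in each library, and 1 of the 12 passed the test, Cd163, which was lower. Of all tested genes 4.74% passed, 3.14% lower. At an unadjusted p under 0.05, 1 of the 12 was lower and 0 higher, where 14.4% and 12.7% of all tested genes were. Limma voom called 1 lower and 0 higher, where it called 5.77% and 3.51% of all tested genes. The part of macrophages in the Tnf values was not tested. In bulk liver, fewer cells of a type and less RNA per cell cannot be told apart.

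Il1rn (ENSMUSG00000026981, GRCm38 chromosome 2, 24336853 to 24351494, plus strand) encodes the interleukin-1 receptor antagonist, a secreted protein that occupies the interleukin-1 receptor without activating it. It was at 5.21 and 4.68 FPKM in wild-type and at 2.20 and 2.66 FPKM in knockout pools, from 488, 407, 217 and 252 reads. The groups were well apart: replicates differed by 0.14 and 0.23 on the log2 scale and the groups by -0.90 (SE 0.14, interval -1.28 to -0.52, limma adjusted p = 0.0478). On the scale of FPKM + 0.5, the knockout value was thus between 0.413 and 0.697 times that of wild type at 95% confidence. Leaving out wild-type replicate 1, wild-type replicate 2, knockout replicate 1 or knockout replicate 2 ended the call, at limma adjusted p of 0.142, 0.107, 0.152 and 0.0739. Rescaling to the reads listed also ended it (adjusted p = 0.0714), with a log2 fold change of -0.84.

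The agonist and receptor of the same system did not pass. Il1b, which encodes interleukin-1β, was at 4.07 ± 1.23 FPKM in wild-type and 2.42 ± 0.385 FPKM in knockout pools (log2 fold change -0.62, interval -1.25 to -0.0029, limma adjusted p = 0.183). The ratio of Il1rn to Il1b FPKM was 1.63 and 0.947 in wild-type and 1.02 and 0.987 in knockout pools, so the groups overlapped. Il1r1, the signalling receptor, was at 21.9 ± 6.76 and 20.9 ± 2.98 FPKM (limma adjusted p = 0.939). Il18bp, a decoy that binds interleukin-18, was at 3.51 ± 0.0652 and 4.77 ± 0.0689 FPKM, with knockout pools above wild-type pools and an adjusted p of 0.108 by limma.

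Neutrophils and macrophages make Il1rn as well as hepatocytes, and the 9 neutrophil markers that passed the expression filter were lower in the knockout pools too. The summed level of 15 neutrophil markers was 123 and 186 FPKM in wild-type and 41.2 and 37.7 FPKM in knockout pools. Of the 9 tested, 4 fell by limma (S100a8, S100a9, Mmp9 and Clec4d) and 5 did not pass (median log2 fold change -1.45). Of all tested genes, 3.14% were lower by limma. At an unadjusted p under 0.05, 8 of the 9 were lower, where 14.4% of all tested genes were. Limma voom called 6 of the 9 lower, where it called 5.77% of all tested genes. All 9 were lower without overlap, where 29.9% of all tested genes were. The filter shaped these counts and the median. Cxcr2, Mmp8, Mmp9 and Ngp averaged under 1 FPKM in knockout pools and passed it through their wild-type level. The other 6 markers were under the filter and did not share 1 direction: Camp was at 0.156 and 0 FPKM in wild-type and 0.518 and 1.00 FPKM in knockout pools, and Ltf at 0.154 and 0.0369 against 0.0813 and 0.321 FPKM. S100a8 and S100a9 made up most of the sum. The defining marker Ly6g was at 0 in wild-type replicate 1 and at 0.338, 0.0596 and 0.124 FPKM in the other libraries, and Mpo and Elane were under 0.5 FPKM throughout. The part of neutrophils in the Nfkbiz and Il1rn results was not tested. The 9 lymphocyte markers summed to between 3.77 and 4.38 FPKM, and none reached the filter. The 8 sinusoidal endothelial markers summed to 76.6 and 73.0 FPKM in wild-type and to 57.5 and 58.6 FPKM in knockout pools, and 0 of 8 passed by limma, with 2 lower at an unadjusted p under 0.05 (14.4% of all tested genes) and 0 with limma voom. Of 3 tested monocyte markers Ifitm6 was lower (limma adjusted p = 0.0475), and Plac8 and Chil3 did not pass. Ifitm6 had 53 and 43 reads in wild-type and 23 and 23 reads in knockout pools. Limma voom called 0 of the 3. Under the filter, Ly6c2 was higher in both knockout pools, F13a1 was lower and Ccr2 overlapped. Of 3 tested cholangiocyte markers Sox9 was lower (limma adjusted p = 0.0258), and Spp1 and Epcam did not pass by limma. At an unadjusted p under 0.05, 2 of the 3 were lower, and limma voom called 2 of the 3 lower. Spp1 was at 247 and 89.6 FPKM in wild-type and 33.7 and 12.9 FPKM in knockout pools, and Epcam overlapped. Also under the filter, Krt7 was lower in both knockout pools, and Krt19 and Cldn7 overlapped. By limma 0 of 6 stellate cell and fibroblast markers passed (1 lower and 1 higher at an unadjusted p under 0.05, 0 with limma voom), and 0 of 7 hepatocyte markers did (1 lower and 0 higher unadjusted, 0 with limma voom).

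**Figure D3:**
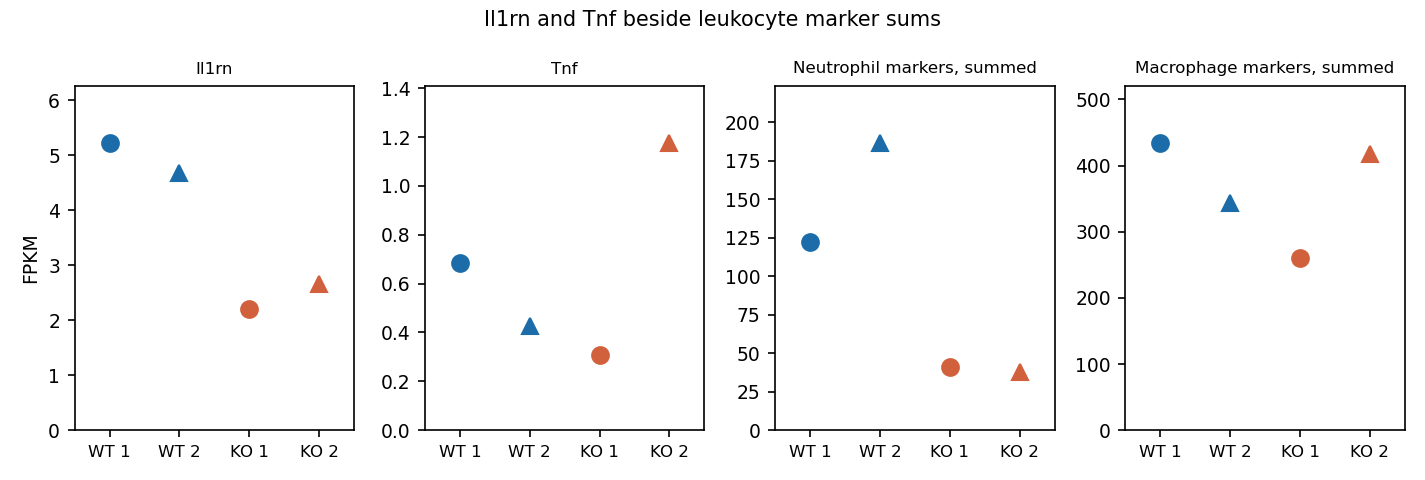
FPKM per pool (circles, replicate 1; triangles, replicate 2; blue, wild type; orange, Utx knockout) of Il1rn and Tnf, and the summed FPKM of 15 neutrophil markers and of 12 Kupffer cell and macrophage markers. Il1rn and the neutrophil sum are lower in both knockout pools. Tnf and the macrophage sum are both lowest in knockout replicate 1. Tnf is highest in knockout replicate 2 and the macrophage sum in wild-type replicate 1.

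Icam1 encodes an adhesion molecule of endothelium and hepatocytes that leukocytes grip through β2 integrins, and it is a standard NF-κB target. Icam1 was at 6.25 and 6.71 FPKM in wild-type and at 7.99 and 6.81 FPKM in knockout pools, from between 460 and 621 reads. The knockout pools were both above the wild-type pools, by a narrow margin for replicate 2 of each (log2 fold change 0.17, SE 0.13, interval -0.16 to 0.51, limma adjusted p = 0.421). On the scale of FPKM + 0.5, the interval allows a knockout value from 0.897 to 1.42 times that of wild type. Gm47079, an antisense gene that overlaps its end, had 2 reads in knockout replicate 1 and 0 in the others. The ratio of Il1rn to Icam1 FPKM was 0.834 and 0.697 in wild-type and 0.275 and 0.390 in knockout pools, with no overlap. Among the adhesion partners of Icam1, Icam2 had the smallest p, at 2.83 ± 0.395 FPKM in wild-type and 1.57 ± 0.468 FPKM in knockout pools (limma adjusted p = 0.137), and 0 of 4 tested passed.

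Around these genes, 101 of 102 listed pathway genes in 9 roles were found in the table and 75 were tested. Of the 75, 2 were lower, 0 were higher and 73 did not pass by limma, a share of 2.67% against the 4.74% of all genes. This list was also made with earlier results of these data known. At an unadjusted p under 0.05, 19 were lower and 5 higher, where 14.4% and 12.7% of all tested genes were. Limma voom on recovered reads called 8 lower and 0 higher, where it called 5.77% and 3.51% of all tested genes. The median log2 fold change of the 75 was -0.18, beside 0.01 over all tested genes. Without wild-type replicate 1, wild-type replicate 2 or knockout replicate 1, 0 of them passed, and 1 passed without knockout replicate 2.

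Both genes that fell are targets of NF-κB and of other stress pathways. Ier3, an early response gene that affects cell survival, fell from 25.5 ± 2.64 to 6.06 ± 1.28 FPKM (log2 fold change -2.00, SE 0.18, limma adjusted p = 0.0258), a ratio of 4.21. Gadd45b, a stress sensor that restrains JNK signalling, fell from 47.5 ± 2.16 to 25.3 ± 3.06 FPKM (log2 fold change -0.90, limma adjusted p = 0.0426). The Gadd45b call was lost when any single library was left out (log2 fold change -1.02 to -0.78, adjusted p between 0.0691 and 0.149), when rescaled to the reads listed (0.0561), without the expression filter (0.113) and without the trend (0.0610). The Ier3 call was lost without wild-type replicate 1 (0.0708), wild-type replicate 2 (0.0657), knockout replicate 1 (0.0603) or the expression filter (0.103), and was kept without knockout replicate 2 (0.0291). The 6 other tested targets did not pass by limma. Of all 8 tested targets, 6 had a negative and 2 a positive log2 fold change. At an unadjusted p under 0.05, 4 of the 8 were lower and 1 higher, where 14.4% and 12.7% of all tested genes were. Limma voom called 3 lower and 0 higher, where it called 5.77% and 3.51% of all tested genes.

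**Figure D4:**
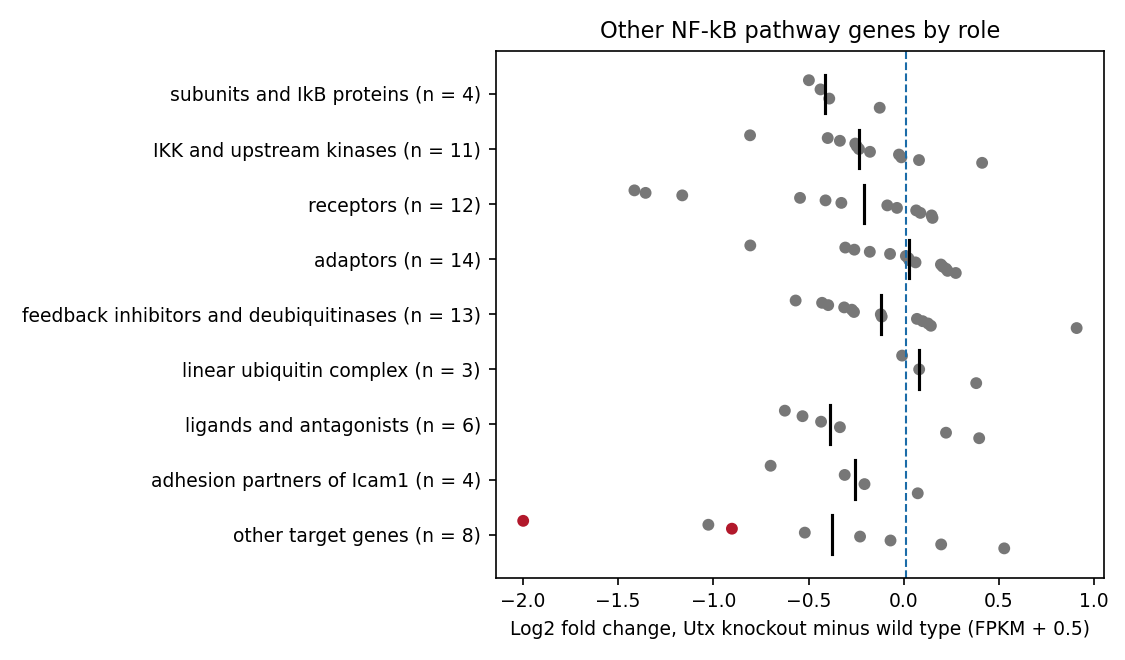
Log2 fold change, Utx knockout minus wild type on log2(FPKM + 0.5), of 75 tested pathway genes grouped by role, 1 point per gene, with a black bar at each role's median and a dashed line at the median of all tested genes (0.01); red marks a limma adjusted p under 0.05. Ier3 and Gadd45b in the bottom row are the red points, and role medians lie between -0.41 and 0.08.

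No role other than the targets held a gene past the threshold by limma. The role counts in this paragraph and the next at an unadjusted p under 0.05 stand against 14.4% lower and 12.7% higher over all tested genes. Those with limma voom stand against 5.77% and 3.51%. Of 11 IκB kinase and upstream kinase genes 0 passed, with 2 lower and 1 higher at an unadjusted p under 0.05 and 1 lower with limma voom. Ikbkb, the catalytic subunit that phosphorylates IκBα, had the smallest p of these, at 5.21 ± 0.853 FPKM in wild-type and 2.75 ± 0.263 FPKM in knockout pools (log2 fold change -0.81, interval -1.23 to -0.39, limma adjusted p = 0.0642). It passed with limma voom (0.0280), with protein-coding genes alone (0.0391) and with a minimum of 50 reads (0.0476). It did not pass in the other 12 of the 15 alternative settings that tested it. Leaving out single libraries gave a log2 fold change of -0.96 to -0.65. Of 12 receptor genes 0 passed, with 4 lower and 0 higher at an unadjusted p under 0.05 and 2 lower with limma voom. Tnfrsf12a, the receptor for the cytokine TWEAK, was at 908 ± 126 FPKM in wild-type and 360 ± 97.4 FPKM in knockout pools (log2 fold change -1.36, limma adjusted p = 0.0568). It passed in 4 of 16 alternative settings, limma voom (0.0309) among them, and did not pass in the other 12. Tnfrsf1a, the main receptor for tumour necrosis factor on hepatocytes, was at 84.6 ± 2.00 and 80.2 ± 12.8 FPKM and its groups overlapped (limma adjusted p = 0.744).

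Of 14 adaptor genes 0 passed, with 1 lower and 0 higher at an unadjusted p under 0.05 and 1 lower with limma voom. That gene was Peli1, a ubiquitin ligase of interleukin-1 receptor signalling, at 6.78 ± 1.41 and 3.63 ± 0.0938 FPKM (limma adjusted p = 0.0702, 0.0393 with limma voom). Peli1 passed in 2 of 16 alternative settings and did not pass in the other 14. Myd88, the adaptor shared by interleukin-1 and most Toll-like receptors, was at 8.97 ± 0.191 and 10.6 ± 0.557 FPKM (limma adjusted p = 0.250). Of 13 other feedback inhibitor and deubiquitinase genes 0 passed, with 3 lower and 1 higher at an unadjusted p under 0.05 and 1 lower with limma voom. Otud7b, a deubiquitinase that acts on TRAF3 in the non-canonical branch, had the smallest p, at 11.0 ± 0.300 and 7.28 ± 0.720 FPKM (limma adjusted p = 0.0688). Rbck1, a subunit of the ligase that builds linear ubiquitin chains, was at 12.2 ± 0.134 and 16.0 ± 1.10 FPKM (limma adjusted p = 0.112).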

How the data were processed

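Poly(A)-selected liver RNA of 4 pools was sequenced. The authors deposited FPKM per gene, with gene lengths; per the submitters' processing notes the aligner was HISAT2 2.0.5 and the build mm10 (GRCm38.p6). No counting program or strand setting is given in the sources used here. Multiplied by length, 100% of the non-zero FPKM were multiples of what 1 read is worth (tolerance 0.01 read), which gave the reads quoted, and 0 sample columns were left out. The 11900 genes averaging 1 FPKM or more entered limma 3.58.1 (R 4.3.3) as log2(FPKM + 0.5) (mean-variance trend, 2 residual and 2.59 prior degrees of freedom, two-sided), Benjamini-Hochberg over all genes. The fit was also run on simulated reads with known changes and the same spread for every gene. That setting is simpler than these pools, so the run does not measure the error rate here. Fold changes on this scale understate low genes. With 2 pools per group an exact permutation test cannot go below p = 0.333. The limma p-values weigh the group difference against the spread between pools, which is shared in part across genes. Each pool mixed 2 mice, so the variation between single mice was not measured. Members and gene lists were chosen with earlier results of these data known. Named pathway genes were those past the threshold (at most 3 a role), the smallest p of roles with none, and Rela, Rel, Ikbkb, Tnfrsf1a, Il1b, Il1r1, Myd88 and Kdm6a. Marker lists were of neutrophils, macrophages, monocytes, endothelium, lymphocytes, stellate cells, cholangiocytes and hepatocytes. The effects of 15 other settings, and of 1 chosen after seeing the data, are given at the end. Figures used matplotlib 3.10.9.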

Additional observations from a re-analysis of the deposited data

How the results depend on the processing

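All alternatives that tested Nfkbiz and Il1rn kept both lower, and calls depended on the setting. The log2 fold change of Nfkbiz, -2.02, did not pass without a filter (adjusted p = 0.120), without the trend (0.0557) or with crossed pairing; leaving out single libraries gave -2.41 to -1.63. That of Il1rn, -0.90, did not pass without a filter (0.133) or without the trend (0.0611), nor at -0.84 when rescaled to the reads listed (0.0714); leaving out single libraries gave -1.01 to -0.79. Of the 10 genes 2 passed; 0 passed without a filter or without the trend, 1 passed with a filter at 5 FPKM (which leaves Il1rn untested) or rescaled, and leaving out single libraries gave 0 to 1. Of the other pathway genes, against 2, 0 passed without a filter, 4 with a filter at 5 FPKM, 7 with at least 50 reads, 1 rescaled, 1 without the trend, 8 with limma voom and 9 among protein-coding genes alone; leaving out single libraries gave 0 to 1. Over all genes 564 passed (190 higher, 374 lower): 0 without a filter (0 and 0), 867 with at least 50 reads (322 higher), 280 without the trend (80 and 200), 1105 with limma voom (418 and 687), 1014 among protein-coding genes (408 and 606), and 0 to 253 with single libraries left out (0 to 57 higher, 0 to 196 lower). Rescaled to the reads listed the split was 211 higher and 255 lower. The filters change which genes are tested, and a left-out library leaves a lone pool assumed to vary like the other group; otherwise the cause was not tested.

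With the replicate number as a block, 310 genes passed (74 higher, 236 lower), among them 1 of the 10 genes, Nfkbiz (log2 fold change -2.02, adjusted p = 0.0315), and 1 other pathway gene; Il1rn stayed at -0.90 and did not pass (0.0869), and neither did Gadd45b (0.0685). Same-numbered pools deviated from their group means with a correlation of -0.14 over genes, so the numbers are not shown to pair the pools. The crossed replicate block, chosen after seeing the data, gave 552 calls, among them 1 of the 10 genes.

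Among genes that did not pass, leaving out single libraries gave -0.33 to 0.078 for Nfkb2, -0.048 to 0.37 for Tnfaip3, -0.088 to 0.15 for Bcl3, -0.25 to 0.076 for Tnfrsf1a and -0.35 to 0.28 for Il1r1, which was 0.026 when rescaled. Tnf rests on at most 33 reads a library, and its knockout pools also differed beyond counting error.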

Other observations

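Other genes of the same lists stood apart between groups but were outside the naming rule, and were chosen after their values were seen. Il33, which encodes a cytokine released from damaged cells, was under the expression filter at 1.68 and 1.32 FPKM in wild-type and 0.350 and 0.384 FPKM in knockout pools. Irak3, an inhibitor of interleukin-1 and Toll-like receptor signalling, was at 0.499 and 0.606 FPKM in wild-type and 1.28 and 1.68 FPKM in knockout pools, with a log2 fold change of 0.91 that did not pass (limma adjusted p = 0.10). Il1r2, the decoy receptor of interleukin-1, was at 0.992 and 2.90 FPKM in wild-type and 0.323 and 0.367 FPKM in knockout pools, and its adjusted p by limma was 0.137. Sod2, the mitochondrial superoxide dismutase and a target of NF-κB, was at 30.7 ± 3.40 and 44.4 ± 4.50 FPKM (SD, n = 2 pools per group, limma adjusted p = 0.104). Cd14, of the receptor list, was at 102 ± 17.2 and 45.7 ± 12.0 FPKM (limma adjusted p = 0.0663). Sdc4, of the target list, was at 270 ± 62.5 and 131 ± 6.35 FPKM (limma adjusted p = 0.0611). Of the 75 tested pathway genes, 36 were separated downward and 13 upward, where 29.9% and 31.6% of all tested genes were.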
